A study of Arabidopsis thaliana with 22 samples.

Results

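The comparison asked which transcripts responded differently to blue and to red light after 6 h, each colour set against darkness of its own series. It rests on 8 of the 22 RNA-seq libraries of the series, 2 for each of 4 groups, and covers every gene that could be tested. All seedlings were Arabidopsis thaliana Col-0, grown on medium with 2% sucrose and kept for 6 days in darkness. The 4 groups were blue light for 6 h, its own controls left dark for those 6 h, red light for 6 h, and the dark controls of the red series. The seedlings were whole and unmutated, and the labels do not say whether replicates came from separate cultures. The p values therefore measure the spread between replicate libraries, which may be technical and was estimated over all 22 libraries of the series. Because whole seedlings were sampled, fewer cells of a type and less RNA per cell cannot be told apart.

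Blue light is sensed in plants mainly by cryptochromes, phototropins and the ZTL family, and red light by phytochromes. Cryptochromes and phytochromes act on a shared set of regulators: they inactivate the COP1 and SPA complex, which marks light-promoting factors such as HY5 for breakdown, and they restrain the PIF factors, which promote growth in the dark. Phytochromes also absorb some blue light, and phytochrome A mediates responses to both colours in etiolated seedlings. A response that differs between the colours is tested here as a difference of differences. Blue light minus its darkness is set against red light minus its darkness, so that a positive log2 value means a response that was more positive in blue.

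Total counts were between 59054903 and 138804638 in the 4 light libraries and between 41262507 and 56864102 in the 4 dark ones. Light libraries were sequenced 2 per pool and dark libraries 4 per pool, in both colours alike. Within a colour, pool size therefore cannot be told apart from light against darkness. Each colour was also a series of its own, so that between the light libraries colour and series cannot be told apart. The first principal component held 64.8% of the variance and separated light (36.48 to 84.39) from dark (-72.74 to -45.6). On the second, with 12.9%, the blue series libraries numbered 1 stood apart at 40.69 in light and 45.89 in darkness, while red light replicate 2 lay at -43.2. PORA, the protochlorophyllide reductase typical of etiolated seedlings, was at 1094 and 558 CPM (read counts of a gene scaled to a common library size) in blue-series darkness and at 344 and 256 CPM in red-series darkness.

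Most of the 6 h response was common to the colours. Blue light changed 8597 of 23011 genes (37.4%) and red light 6378 (27.7%), at an adjusted p under 0.05. In blue 5243 rose (22.8%) and 3354 fell (14.6%), and in red 4055 rose and 2323 fell (10.1%). Under library totals alone the splits were 3661 and 5257 in blue and 3340 and 3154 in red. Of the genes changed, 5462 passed in both, which is 63.5% of the blue and 85.6% of the red calls. Among them 3543 rose in both colours, 1915 fell in both, and 4 moved in opposite directions. The log2 responses to the 2 colours had a Pearson correlation of 0.823 over these 23011 genes. Genes are no independent replicates.

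The difference between the 2 responses passed the test for 22 of 23011 genes (0.0956%), 21 of them higher in blue (0.0913%) and 1 lower (0.00435%). Without adjustment 1460 genes (6.34%) had a p under 0.05, 852 higher and 608 lower, and the median difference over all genes was 0.01 on the log2 scale. The 22 had differences of 0.75 to 4.60 in size. All 4 blue light-minus-dark pairs of libraries lay on 1 side of all 4 red pairs for each of the 22, which is so for 9.18% of all genes above and 8.19% below. Of the 21 genes higher in blue, 17 rose under both colours and rose further in blue, PHYB and NUDT2 rose in blue and did not pass in red, AT4G15700 rose in blue and fell in red, and PIL1 fell in both, less far in blue.

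The number of calls depended on single libraries. Without blue light replicate 1 the test called 7 genes, without blue light replicate 2 it called 47, and without replicates 1 or 2 of blue-series darkness 4 or 18. Without replicates 1 or 2 of red light it called 7 or 13, and without replicates 1 or 2 of red-series darkness 8 or 4. Only PIL1, AT4G15700, AT1G73650 and AT1G13670 passed in all 8 of these fits, although each of the 22 kept its direction in all of them. Fitted on the 8 libraries alone, without the spread of the other groups, the edgeR test called 0 genes, with 1214 at an unadjusted p under 0.05. DESeq2 called 137 in the full design, 108 higher and 29 lower, including all 22.

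**Figure D1:**
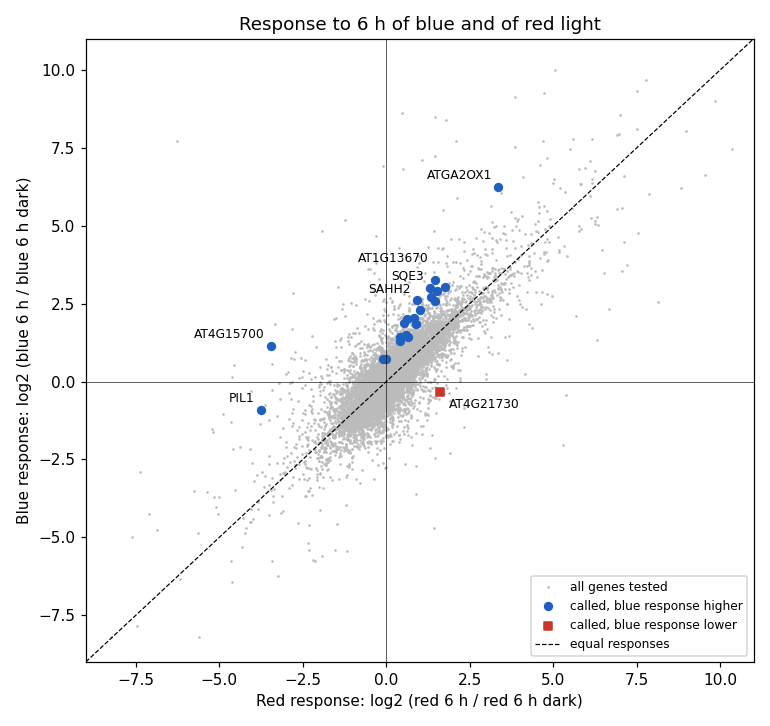
Response of each of the 23011 genes to 6 h of blue light (vertical axis) against its response to 6 h of red light (horizontal axis), both as log2 of light over the darkness of the same series; the dashed line marks equal responses. Grey points are all genes tested, blue circles the 21 genes whose response was higher in blue and the red square the 1 gene whose response was lower; the called genes lie close to a broad shared response, with PIL1 and AT4G15700 far to the left of the line.

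Among light signalling genes, PIL1, LZF1 and PHYB differed between the colours. PIL1 (AT2G46970), a bHLH factor of the PIF family whose transcript is abundant in dark-grown and shaded seedlings, was at 17.99 and 12.95 CPM in blue light, against 34.4 and 23.9 CPM in its darkness. In red light it was at 1.83 and 2.05 CPM, against 26.6 and 26.2 CPM in darkness. The dark libraries of the 2 series overlapped, while both red light libraries lay far below both blue ones. PIL1 was 1.89-fold lower in blue light (log2 -0.91, SE 0.19) and 13.6-fold lower in red light (log2 -3.76, SE 0.21), and these responses differed by 2.85 (SE 0.28, adjusted p = 0.000578; 2.60 to 3.13 with 1 library left out).

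LZF1 (AT1G78600), also known as BBX22, encodes a B-box factor that works with HY5 and promotes de-etiolation. It was at 94.8 and 104.9 CPM in blue light, against 11.3 and 15.3 CPM in blue-series darkness. In red light it was at 49.6 and 45.5 CPM, against 15.9 and 17.2 CPM in darkness. The libraries of the 2 light groups did not overlap, and those of the dark groups ran the other way, slightly lower in the blue series. LZF1 rose 7.48-fold in blue and 2.87-fold in red, a difference of 1.38 on the log2 scale (SE 0.21, adjusted p = 0.0228). That call held without blue light replicate 2 or blue-series darkness replicate 2, and was lost without any other of the 8 libraries (1.18 to 1.62).

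PHYB (AT2G18790), the main red light receptor of light-grown plants, had 229 and 219.7 CPM in blue light, against 138 and 134 CPM in blue-series darkness. In red light its transcript stood at 112 and 121 CPM, against 116 and 120.5 CPM in darkness. Both blue light libraries lay above the 6 others, and the red light and dark libraries overlapped. The transcript rose 1.65-fold in blue light, while its red response was -0.02 (SE 0.08, adjusted p = 0.863). The difference, 0.75 (SE 0.11, adjusted p = 0.0182), is the smallest of the 22 and has the smallest SE among them. It passed in the fits without blue light replicate 2 or red light replicate 2 and missed the threshold without each of the other 6 (0.69 to 0.81).

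ATGA2OX1 (AT1G78440), a gibberellin 2-oxidase that inactivates C19 gibberellins, had the largest difference among called genes of at least 10 CPM. It was at 16.6 and 13.1 CPM in blue light, against 0.22 and 0.17 CPM in blue-series darkness. In red light it was at 2.59 and 1.81 CPM, against 0.23 and 0.20 CPM in darkness. The dark values rest on 9 and 10 reads in the blue series and 10 and 9 in the red. ATGA2OX1 rose 76.3-fold in blue and 10.2-fold in red, a difference of 2.91 (SE 0.44, adjusted p = 0.0228; 2.68 to 3.19 with 1 library left out). The call held without blue light replicate 2 or either red light library and was lost without each of the other 5. At 1 h of light the order had been the other way, with log2 responses of 6.53 in blue and 7.57 in red, a difference that was not tested.

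The called genes also include several that encode enzymes. SQE3 (AT4G37760), a squalene epoxidase of sterol synthesis, was at 142 and 129 CPM in blue light, against 15.02 and 18.36 CPM in its darkness, and at 27.5 and 32.5 CPM in red light, against 12.3 and 11.9 CPM. It rose 8.09-fold in blue and 2.48-fold in red, a difference of 1.71 (SE 0.22, adjusted p = 0.00861). No blue light library came within reach of a red one, and the call held in 5 of the 8 fits with 1 library left out. SAHH2 (AT3G23810), which hydrolyses the S-adenosylhomocysteine left by methylation reactions, was at 949 and 591 CPM in blue light, against 135 and 117 CPM, and at 231 and 194 CPM in red light, against 116 and 108 CPM. The blue light libraries differed from each other by more than the red ones, and SAHH2 was called without blue light replicate 2 and in none of the other 7 such fits. Its responses differed by 1.68 (SE 0.27, adjusted p = 0.0308; 1.299 to 1.984).

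PPC2 (AT2G42600), a phosphoenolpyruvate carboxylase that supplies oxaloacetate for amino acid synthesis, was at 622 and 462 CPM in blue light, against 149.7 and 146 CPM in darkness. In red light it was at 203 and 226 CPM, against 137 and 159.7 CPM. Its dark libraries overlapped, and it rose 3.66-fold in blue and 1.44-fold in red (difference 1.34, SE 0.19, adjusted p = 0.0184; called in 3 of 8 fits with 1 library left out). CM1 (AT3G29200), the chorismate mutase at the entry to phenylalanine and tyrosine synthesis, rose 2.48-fold in blue and 1.33-fold in red (difference 0.90, SE 0.14, adjusted p = 0.0228; called in 2 of 8). AOAT2 (AT1G70580), also called GGT2, is a glutamate:glyoxylate aminotransferase and rose 3.63-fold in blue and 1.84-fold in red (difference 0.98, SE 0.16, adjusted p = 0.0313; called in 1 of 8). Its 2 blue light libraries were at 56.1 and 54.5 CPM and its 2 red light libraries at 25.6 and 26.4 CPM, so that the groups were far apart for a small spread. NUDT2 (AT5G47650), an ADP-ribose pyrophosphatase, was at 12.4 and 11.9 CPM in blue light, against 7.34 and 7.39 CPM, and at 6.79 and 5.96 CPM in red light, against 7.07 and 6.66 CPM. It rose 1.64-fold in blue, and its red response of -0.11 did not pass (difference 0.82, SE 0.14, adjusted p = 0.0313; called in 1 of 8).

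SEP2 (AT2G21970), a light-harvesting-like stress protein of the thylakoid, was at 78.7 and 102 CPM in blue light, against 20.9 and 23.7 CPM, and at 35.6 and 42.5 CPM in red light, against 24.0 and 26.6 CPM. It rose 4.05-fold in blue and 1.55-fold in red (difference 1.39, SE 0.23, adjusted p = 0.0313; called only without blue light replicate 1 among the 8 fits with 1 library left out). SDHAF2 (AT5G51040), an assembly factor of mitochondrial complex II, had 83.3 and 83.7 CPM in blue light and 37.1 and 37.1 CPM in red light. Its dark libraries were at 17.76 and 22.98 CPM in the blue series and 21.6 and 20.5 CPM in the red. SDHAF2 therefore had a common starting level and rose 4.09-fold in blue and 1.76-fold in red (difference 1.22, SE 0.18, adjusted p = 0.0184; called in 2 of 8). COX15 (AT5G56090), a homologue of the heme A synthase of cytochrome c oxidase, rose 2.72-fold in blue and 1.33-fold in red (difference 1.03, SE 0.14, adjusted p = 0.0154; called in 4 of 8).

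The other called genes that rose in both colours are known only by their annotation. AT1G13670, an uncharacterised protein, was at 24.4 and 28.3 CPM in blue light, against 2.91 and 2.62 CPM in darkness, and at 10.3 and 7.89 CPM in red light, against 3.27 and 3.33 CPM. It rose 9.56-fold in blue and 2.76-fold in red (difference 1.79, SE 0.20, adjusted p = 0.00129). AT1G73650, annotated as a steroid dehydrogenase-like protein (DUF1295), was at 72.4 and 70.5 CPM in blue light, against 9.27 and 8.30 CPM, and at 21.13 and 21.96 CPM in red light, against 6.32 and 6.30 CPM. Both genes had light groups that did not overlap, and both passed without any 1 of the 8 libraries. The difference of AT1G73650 was 1.25 (SE 0.14, adjusted p = 0.00129).

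Calls that held in fewer of these fits were those of AT2G46420, a helicase with a zinc finger, with a difference of 1.38 (SE 0.23, adjusted p = 0.0313; called in 2 of 8 fits with 1 library left out), and AT1G78820, a D-mannose binding lectin protein, with 1.26 (SE 0.22, adjusted p = 0.0480; called in 1 of 8). AT3G16350, a Homeodomain-like superfamily protein, rose 6.00-fold in blue and 2.73-fold in red (1.14, SE 0.18, adjusted p = 0.0245; called in 3 of 8). The difference was 0.91 (SE 0.15, adjusted p = 0.0402; called in 1 of 8) for AT5G04830, an NTF2 family protein. For AT3G15090, an alcohol dehydrogenase family protein, it was 0.79 (SE 0.13, adjusted p = 0.0308; called in 0 of 8).

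2 called genes lie below 10 CPM in all groups and were picked after their values were seen. AT4G15700, annotated as a Thioredoxin superfamily protein, had the largest difference of all, 4.60 (SE 0.42, adjusted p = 0.000505; 4.29 to 5.00 with 1 library left out). It was at 3.35 and 3.52 CPM in blue light, against 1.23 and 1.87 CPM in darkness, and at 0.15 and 0.25 CPM in red light, against 2.15 and 2.28 CPM. The red light values rest on 12 and 19 reads, and the 2 colours moved in opposite directions, 2.204-fold up in blue and 11.02-fold down in red. Its 4 neighbours AT4G15660 to AT4G15690 carry the same annotation, and reads may be split among them if their sequences are alike. All 4 were higher in blue light than in red light, by 2.47, 2.80, 2.63 and 2.00 on the log2 scale, with adjusted p of 0.0118, 0.00183, 0.0019 and 0.0176. Their differences of responses were 3.87, 3.44, 1.92 and 1.85 and did not pass (adjusted p = 0.096, 0.0558, 0.689 and 0.551). They did not share the red fall of AT4G15700 (log2 -3.46). Their red responses were -0.38, -0.44, 2.70 and 0.68, of which only the rise of AT4G15680 passed (adjusted p = 0.00169 by edgeR). Their dark values rest on 2 to 62 reads per library.

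AT4G21730 is annotated as a pseudogene of N-ethylmaleimide sensitive factor and was the 1 gene with a lower response in blue. It was at 2.15 and 2.44 CPM in blue light, against 3.27 and 2.58 CPM in darkness, and at 7.63 and 5.57 CPM in red light, against 2.15 and 2.17 CPM. Red light therefore stood above the other 3 groups, with a 3.06-fold rise, while the blue response was -0.34 (SE 0.23, adjusted p = 0.26). The difference was -1.96 (SE 0.32, adjusted p = 0.0313; called without blue-series darkness replicate 2 or red light replicate 2 and lost without each of the other 6). Counts of a pseudogene can include reads of the gene it resembles.

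**Figure D2:**
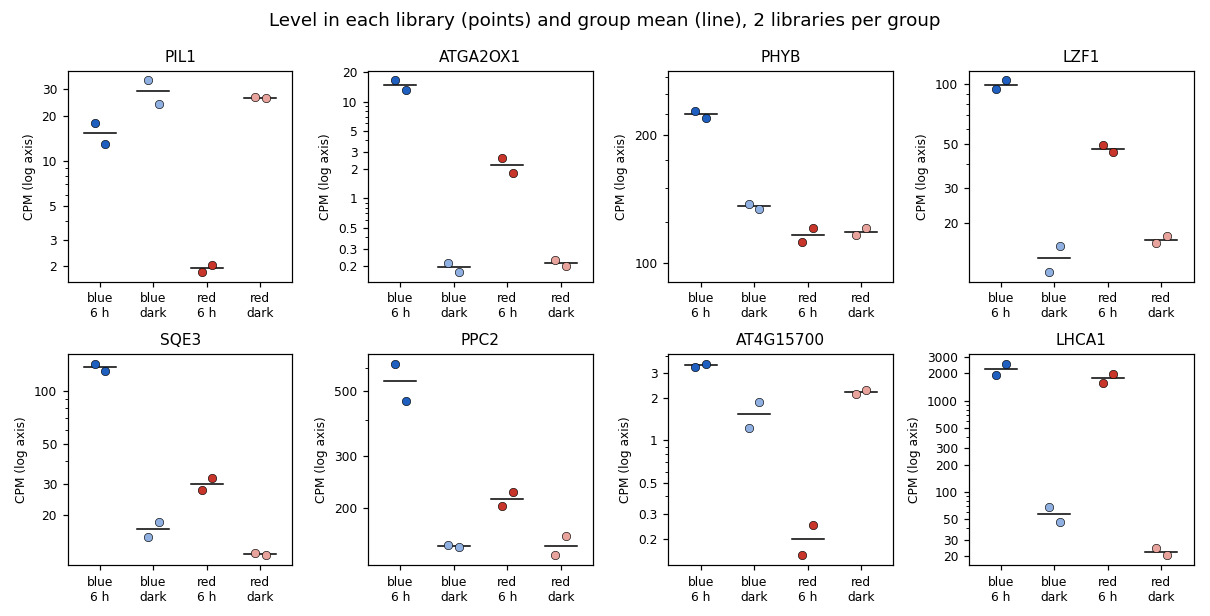
CPM on a log axis in each of the 8 libraries (points) with the mean of the 2 libraries of a group (line), for 7 called genes and LHCA1, a light-harvesting gene that was not called. PIL1 is far lower in red light than in blue light, PHYB is high in blue light alone, and the LHCA1 libraries of the 2 light groups overlap.

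White light for 6 h, another series with its own darkness, was looked at afterwards as a side value. Of the 22 genes, 21 had a white response nearer to the blue than to the red one, 16 above both, 5 between them and 1 below both. The share over all genes was not computed for these counts or for the count at 1 h below. The 22 were selected by their blue minus red difference, so these counts are no separate support for the calls. SQE3 had log2 responses of 3.02 in blue, 1.31 in red and 4.16 in white light, and COX15 had 1.44, 0.41 and 2.75. PIL1 was the exception, at -0.91 in blue, -3.76 in red and -3.27 in white light. AT4G21730, at -0.34 in blue and 1.61 in red, had -1.06 in white. At 1 h of light the blue minus red difference had the same sign as at 6 h for 20 of the 22, for example 0.73 for LZF1, 0.74 for SEP2 and 0.53 for PIL1. The 2 that differed in sign were ATGA2OX1 (-1.04) and PPC2 (-0.10). PHYB at 1 h had responses of 0.16 in blue and 0.14 in red light.

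**Figure D3:**
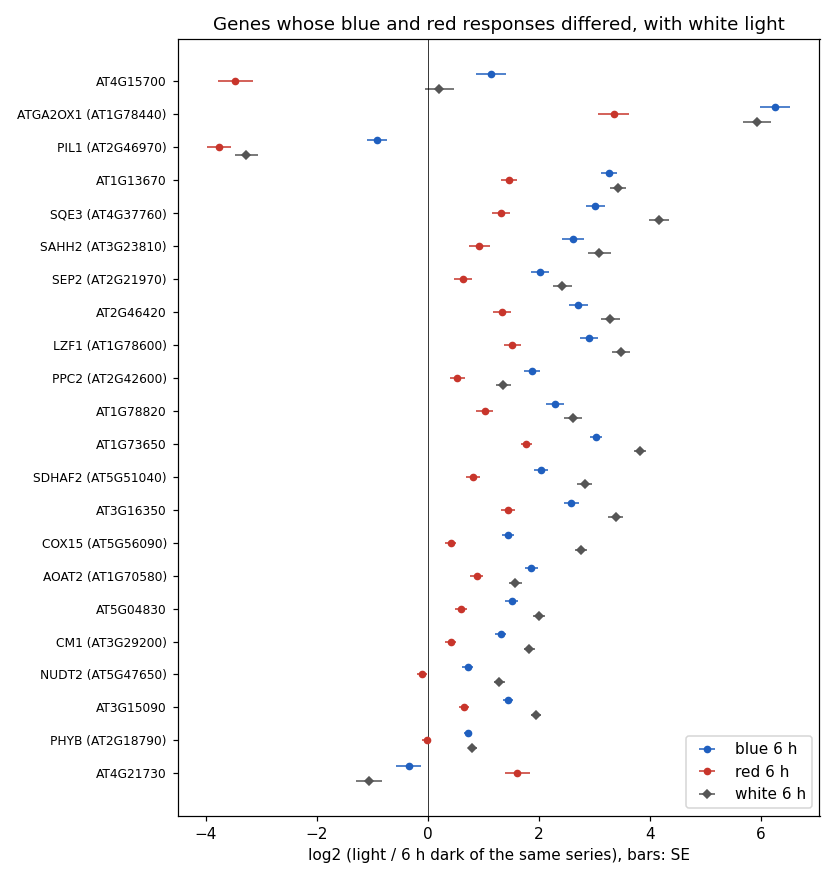
Log2 response (light over the 6 h darkness of the same series) of the 22 called genes in blue, red and white light, with the standard error as bars, ordered by the blue minus red difference. The white response lies nearer to blue than to red in all genes but PIL1, whose white response of -3.27 is close to the red one of -3.76.

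A further 27 genes had an adjusted p between 0.05 and 0.1, 24 of them with a higher response in blue. RUP2 (AT5G23730), a repressor of the UV-B receptor UVR8 and of flowering, was the nearest at an adjusted p of 0.0526. It was at 29.8 and 44.2 CPM in blue light, against 1.56 and 2.25 CPM in darkness, and at 5.37 and 7.41 CPM in red light, against 1.67 and 2.32 CPM. The groups in darkness overlapped and those in light did not, and the difference was 2.59 (SE 0.46). DESeq2 called RUP2 (adjusted p = 2.59e-05). FAH1, ferulate 5-hydroxylase of sinapate ester synthesis, had 2.47 (SE 0.49, adjusted p = 0.096) and UGT84A2, a sinapate glucosyltransferase, 1.59 (SE 0.32, adjusted p = 0.0965). FAH1 was at 121 and 60.6 CPM in blue light and at 40.1 and 25.9 CPM in red light. Its dark groups did not overlap, at 7.08 and 9.40 CPM in the blue series and 14.3 and 19.0 CPM in the red. MSRB6, a methionine sulfoxide reductase, had 3.04 (SE 0.59, adjusted p = 0.096) and BBX18 1.32 (SE 0.25, adjusted p = 0.0926 by edgeR and 0.00432 by DESeq2). The 3 with a lower response in blue were scpl40 (-0.90), AT1G31040 (-1.20) and CRK3 (-0.60).

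Of the light signalling regulators, 43 were measured, and 2 of them (PIL1 and LZF1) were called with a higher response in blue, against a background of 0.0913% of all genes called higher. The list's median difference was 0.34, against 0.01 over all genes, and 15 members had an unadjusted p under 0.05 in the higher and 4 in the lower direction (3.7% and 2.64% of all genes). When the light libraries alone were compared, 19 members were higher in blue and 3 lower (2.93% and 1.03% of all genes were called). In that comparison blue light exceeded red light for HY5 by 1.23, COP1 by 0.53, SPA1 by 0.66, SPA3 by 1.12 and SPA4 by 1.08, genes of the HY5 and COP1 core. RUP1 and RUP2 were higher by 1.72 and 2.53, and the B-box genes BBX18, STO and STH by 1.297, 0.66 and 1.42. These are differences of level in light, and none of these genes passed the edgeR test of the difference of responses. In darkness the list's median blue minus red value was 0.109.

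The 3 members lower in blue light than in red light were PIF4, PIF7 and PIL6 (also called PIF5), bHLH factors that drive elongation. PIF4 was at 37.8 and 43.4 CPM in blue light, against 30.7 and 37.4 CPM in darkness, and at 72.6 and 79.1 CPM in red light, against 31.7 and 33.9 CPM. It rose 2.31-fold in red, its blue response of 0.25 did not pass (adjusted p = 0.291), and the difference of responses was -0.96 (SE 0.25, adjusted p = 0.287). PIF7 was at 5.52 and 3.97 CPM in blue light and 9.38 and 10.6 CPM in red light, with a difference of responses of -1.64 (SE 0.37, adjusted p = 0.152). UNE10, another member of the PIF family, ran the other way, with a level higher by 1.26 in blue light and a difference of responses of 1.19 (SE 0.30, adjusted p = 0.241). These adjusted p are from edgeR. DESeq2 called the difference for PIF7 (adjusted p = 0.0277) and UNE10 (0.0297) and not for PIF4. It called 7 members of the list in all, against 137 of all 23011 genes.

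None of the 22 flavonoid and anthocyanin enzymes passed the edgeR test of the difference, while all 22 had a positive value, with a median of 0.95 (0.93 over the 21 without UGT78D3, which had no reads in either dark group). Positive values were found for 51.3% of all genes. An unadjusted p under 0.05 was reached by 10 members, all higher (3.7% of all genes). In the direct comparison 10 were higher in blue light than in red light (2.93% of all genes). UGT78D2 (AT5G17050), an anthocyanidin and flavonol glucosyltransferase, was at 101.9 and 62.97 CPM in blue light, against 3.61 and 4.99 CPM in darkness. In red light it stood at 22.72 and 26.04 CPM, against 2.997 and 3.306 CPM. The light groups did not overlap, and its difference of responses was 1.299 (SE 0.32, adjusted p = 0.233). DESeq2 called 3 of the 22, all higher: UGT78D2 (adjusted p = 0.0265), AT1G06000 (0.031) and AT1G03940 (0.0425). Over all 23011 genes DESeq2 called 108 higher.

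The first and best known enzyme of the pathway, chalcone synthase (TT4, AT5G13930), had a difference of 0.14 (SE 1.05), and its sign changed between fits. It was at 783 and 524 CPM in blue light, against 18.1 and 43.8 CPM, and at 180 and 238 CPM in red light, against 2.08 and 19.8 CPM. Red-series darkness thus spread nearly 10-fold between its 2 libraries, and without its replicate 2 the difference was -2.26. DFR, dihydroflavonol reductase, had 0.63 (SE 1.24), and -6.57 without that same library.

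Photosystem and light-harvesting genes had the opposite tendency. Of 46 measured, 0 passed the edgeR test of the difference and 0 were called by DESeq2, 43 had a negative value, and the median was -0.57. An unadjusted p under 0.05 was reached by 1 member in the higher and 5 in the lower direction (3.7% and 2.64% of all genes). All 46 were higher in blue-series than in red-series darkness, by a median of 0.99, although none passed the edgeR test of that difference. In light 45 were higher in blue, by a median of 0.39, of which 1, LHCB4.3, passed (2.93% of all genes passed as higher). The summed level of the 46 genes was 46830 and 67200 CPM in blue light, against 12330 and 8693 CPM in its darkness, and 35760 and 53920 CPM in red light, against 4300 and 4107 CPM in its darkness. The light groups overlapped and the dark groups did not. Blue light raised 45 and red light 46 of the 46, with median log2 responses of 2.88 in blue and 3.43 in red. Counts of the near-identical LHCB1 and LHCB2 copies in the list are uncertain.

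**Figure D4:**
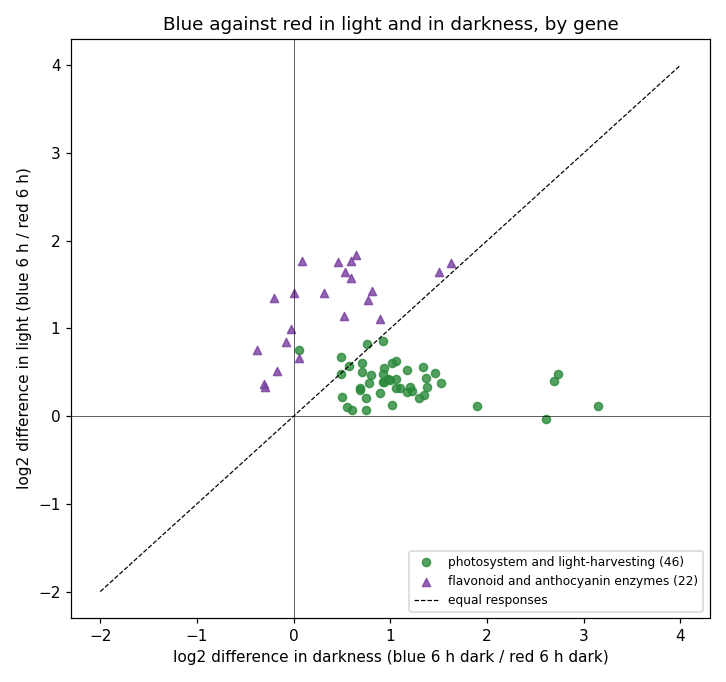
Log2 difference between the blue and red series in light (vertical axis) and in darkness (horizontal axis) for 46 photosystem genes (circles) and 22 flavonoid enzymes (triangles); genes on the dashed line have equal responses. Photosystem genes lie mostly below the line and to the right, and the flavonoid enzymes lie above it. The blue minus red value of the photosystem genes had a median of 0.99 in darkness and 0.39 in light.

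Chlorophyll synthesis genes had a median difference of -0.23 with 24 of 29 negative, again beside a dark difference of 0.62. PORA had -2.83 (SE 1.19, adjusted p = 0.706): it was at 21.9 and 23.7 CPM in blue light and at 64.2 and 53.8 CPM in red light, with the dark levels given above. The Calvin cycle list had a median of 0.10 with 5 of 26 members higher in blue light than in red light (2.93% of all genes were), among them CP12-2 by 1.37, and CAT2, the catalase of photorespiration, by 1.07. Carotenoid synthesis had a median of 0.15 with 5 of 15 higher in light, including ZDS by 0.75 and the violaxanthin de-epoxidase NPQ1 by 0.98. Photoprotection genes had 0.16 with 8 of 23 higher in light. In none of these 4 lists did a member pass the edgeR test of the difference of responses. An unadjusted p under 0.05 was reached by 3 chlorophyll, 2 Calvin cycle, 2 carotenoid and 3 photoprotection genes (6.34% of all genes). DESeq2 called CAT2 (1.06, adjusted p = 0.0301) and no other member of the 4.

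ELIP1 and ELIP2, early light-induced proteins of the thylakoid, were among the genes with the highest level in blue relative to red light. ELIP1 was at 299 and 280.1 CPM in blue light, against 10.8 and 34.9 CPM, and at 12.6 and 19.0 CPM in red light, against 2.36 and 4.09 CPM. Blue light exceeded red light by 4.19 (adjusted p = 0.0019), and the dark groups did not overlap either, so that the difference of responses was 1.37 (SE 0.81, adjusted p = 0.937). ELIP2 had 3.04 between the light groups and 0.12 (SE 0.89) between the responses, whose sign changed when 1 library was left out (-0.50 to 0.58).

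Nitrogen assimilation genes had a median difference of 0.38 with 5 of 10 higher in blue light than in red light, against 2.93% of all genes. No member passed the edgeR test of the difference of responses, and 4 had an unadjusted p under 0.05, all higher (3.7% of all genes). NIA2, a nitrate reductase, was at 935 and 1131 CPM in blue light, against 299 and 552 CPM in darkness, and at 432 and 503 CPM in red light, against 285 and 273 CPM. Its light levels differed by 1.14 (adjusted p = 0.01), and its responses by 0.53 (SE 0.31, adjusted p = 0.931). Blue light signalling partners, among them the phototropin partner RPT2 and the chloroplast movement genes KAC1 and JAC1, had a median difference of 0.36. In light 6 of the 15 were higher in blue (2.93% of all genes). AT3G52740, AT1G18810 and AT3G44450 had the smallest adjusted p of the list in that comparison. KAC1 was higher by 1.04, JAC1 by 0.86 and RPT2 by 0.87. None of the 15 passed the edgeR test of the difference of responses, and 3 had an unadjusted p under 0.05, all higher (3.7% of all genes). Of 6 plastid sigma factors 3 were higher in blue light than in red light (2.93% of all genes). SIGE (also called SIG5) was at 61.7 and 72.1 CPM in blue light, against 2.31 and 4.55 CPM, and at 20.1 and 16.6 CPM in red light, against 3.16 and 2.97 CPM. Its difference of responses was 1.68 (SE 0.37, adjusted p = 0.136 by edgeR and 0.00325 by DESeq2).

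Among growth hormone genes ATGA2OX1 was the 1 called member of the 30 gibberellin and brassinosteroid genes (0.0956% of all genes were called). Their median was -0.13, and 8 had an unadjusted p under 0.05, 6 higher and 2 lower (3.7% and 2.64% of all genes). GA20OX1, a gibberellin synthesis enzyme, was at 6.18 and 6.22 CPM in blue light, against 10.5 and 7.36 CPM, and at 14.1 and 12.1 CPM in red light, against 8.603 and 7.571 CPM. It fell in blue (-0.52, adjusted p = 0.05) and rose in red (0.70, adjusted p = 0.0163), and the difference of -1.22 (SE 0.28) had an adjusted p of 0.173. In blue its adjusted p was just below the threshold. The 41 auxin genes had a median of -0.08 and 0 calls by edgeR. Of them 8 had an unadjusted p under 0.05, 3 higher and 5 lower (3.7% and 2.64% of all genes). IAA6, a repressor of auxin response, had -2.56 (SE 0.54, adjusted p = 0.122). IAA6 was at 0.75 and 2.54 CPM in blue light, against 10.9 and 7.95 CPM, and at 8.06 and 7.32 CPM in red light, against 7.51 and 6.90 CPM. The XTH19 gene of wall loosening had -1.39 (SE 0.38, adjusted p = 0.316). DESeq2 called all 3 of these differences, with adjusted p of 0.000844 for IAA6, 0.00939 for GA20OX1 and 0.0421 for XTH19.

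**Figure D5:**
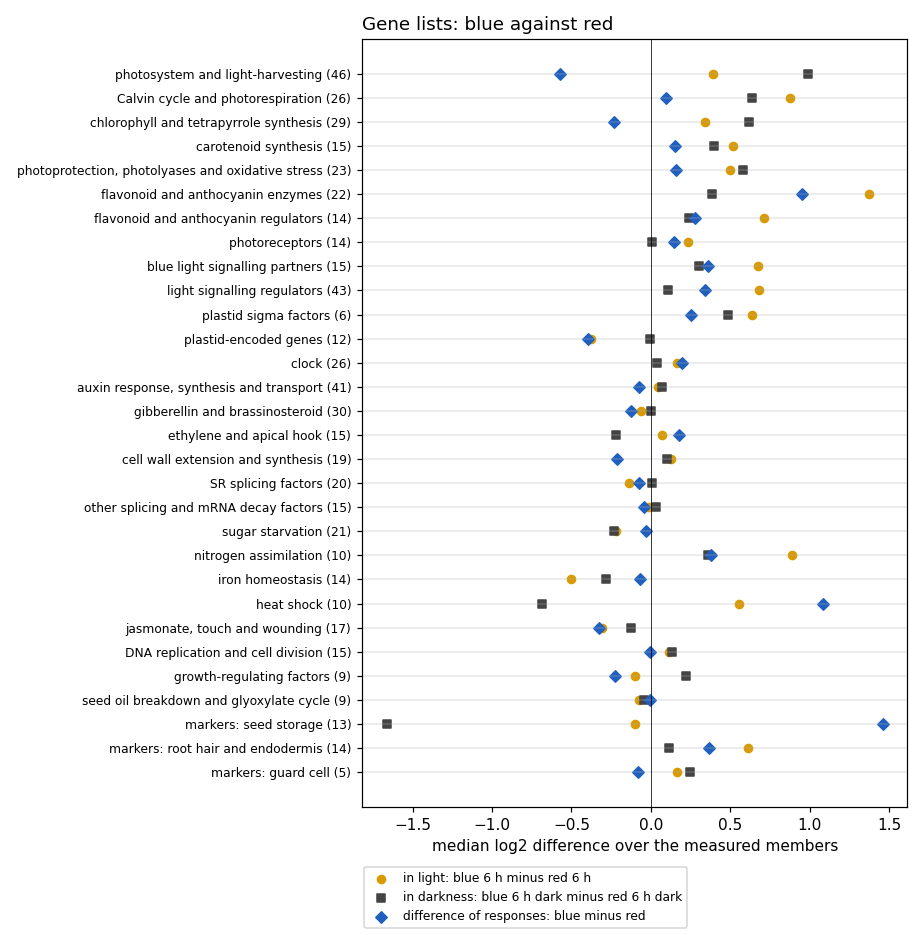
Median log2 value over the measured members of each list (number in brackets), for blue light minus red light (circles), blue-series minus red-series darkness (squares) and the difference of the 2 responses (diamonds). The flavonoid enzymes have a median difference of responses of 0.95 and the photosystem genes of -0.57, and seed storage and heat shock lists are the farthest to the right beside dark values below 0.

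Clock genes (26, median 0.20), SR splicing factors (20, -0.07), other splicing and decay factors (15, -0.05) and sugar starvation genes (21, -0.03) held 0 calls by edgeR. They had 2, 0, 0 and 2 members at an unadjusted p under 0.05 (6.34% of all genes). DESeq2 called GDH1 of the sugar starvation list (-0.61, adjusted p = 0.00403). The lists of DNA replication (15, -0.01), growth-regulating factors (9, -0.23), iron (14, -0.07), jasmonate (17, -0.33), cell wall (19, -0.21), ethylene and hook (15, 0.18), seed oil breakdown (9, -0.01), flavonoid regulators (14, 0.28) and plastid-encoded genes (12, -0.40) held no edgeR call either. They had 0, 1, 1, 3, 3, 1, 0, 0 and 0 members at an unadjusted p under 0.05, in that order, and DESeq2 called XTH19 alone among them. The heat shock list had a median of 1.09 and 9 of 10 positive, beside a dark difference of -0.69. It held 0 calls by edgeR and 2 members at an unadjusted p under 0.05. Its sum was 422 and 365 CPM in blue light, against 90.7 and 176 CPM, and 283 and 313 CPM in red light, against 181 and 223 CPM. Markers of other cell types were also followed. The 13 seed storage markers had a median difference of 1.46, with 13 of 13 positive, 0 called by edgeR or DESeq2 and 0 at an unadjusted p under 0.05. Their sum was 620.5 CPM in replicate 2 of red-series darkness and between 7.92 and 87.0 CPM in the other 7 libraries. Root hair and endodermis markers had 0.37 (13 of 14 positive; sums of 418 to 542 CPM in blue light and 342 to 467 CPM in red light) and guard cell markers -0.08 (2 of 5 positive; 26.8 to 34.9 CPM in blue light and 31.2 to 32.1 CPM in red light). The part of these cell types in the called genes was not tested.

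The photoreceptor genes themselves, 14 in all, held 1 call, PHYB (0.0956% of all genes were called), and had a median difference of 0.14. PHYA, the receptor of etiolated tissue, was at 600.5 and 731 CPM in blue light, against 1491 and 1440 CPM in darkness, and at 477 and 516 CPM in red light, against 1409 and 1713 CPM. It fell in both colours, by 1.14 in blue and 1.65 in red on the log2 scale, and the difference of 0.52 (SE 0.26) did not pass (adjusted p = 0.833). The cryptochromes CRY1 and CRY2 had -0.02 (SE 0.14) and 0.20 (SE 0.13), at 163 and 181 CPM for CRY1 in blue light and 151 and 170 CPM in red light, and at 266 and 309 CPM for CRY2 in blue light and 246 and 256 CPM in red light. For CRY1 the light groups overlapped and for CRY2 they did not.

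PHOT1 and PHOT2, the phototropins, had differences of -0.09 (SE 0.21) and -0.09 (SE 0.43), PHYC -0.03 (SE 0.14), PHYD 0.12 (SE 0.13), PHYE 0.12 (SE 0.17) and UVR8 0.17 (SE 0.12). In blue light the 2 libraries were at 445.5 and 375 CPM for PHOT1, 274 and 230.0 CPM for PHOT2, 63.9 and 59.5 CPM for PHYC, 22.8 and 24.6 CPM for PHYD, 36.9 and 37.5 CPM for PHYE, and 118 and 131 CPM for UVR8. In red light they were at 317 and 344.5 CPM for PHOT1, 145 and 181 CPM for PHOT2, 59.7 and 66.6 CPM for PHYC, 20.9 and 22.6 CPM for PHYD, 28.1 and 33.5 CPM for PHYE, and 112 and 116 CPM for UVR8. ZTL had 0.34 (SE 0.19), FKF1 0.19 (SE 0.25) and LKP2 0.01 (SE 0.15), the blue light receptors that act on the clock. CRY3 (AT5G24850), a DNA-repairing cryptochrome of organelles, was at 43.8 and 43.6 CPM in blue light, against 5.39 and 6.24 CPM, and at 11.5 and 14.1 CPM in red light, against 3.27 and 3.71 CPM. It was higher in blue light than in red light by 1.77 (adjusted p = 0.000947), and its difference of 1.04 (SE 0.34) did not pass (adjusted p = 0.52).

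Of the other genes listed by name for the comparison, those not yet described missed the threshold. HYH, a homologue of HY5, had 0.34 (SE 0.63), MYB12, a flavonol regulator, -1.33 (SE 0.78), and PAP1, an anthocyanin regulator, -0.15 (SE 0.45). HFR1, a bHLH factor that restrains PIFs, had 0.76 (SE 0.32), and IAA29, an auxin response repressor, 0.63 (SE 0.23). GA3OX2, a gibberellin synthesis gene, had -0.86 (SE 1.17), PRR9 of the clock 0.34 (SE 0.80), LHCA1 of the photosystem I antenna -1.05 (SE 0.54), and GRF7 -1.09 (SE 0.67). The photolyases PHR1 and UVR3 had 0.48 (SE 0.39) and 0.19 (SE 0.34).

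Compared directly, blue and red light differed in 912 genes (3.96%), 674 higher in blue and 238 lower, and the darkness of the 2 series in 0 (0.0%), although 2156 genes had an unadjusted p under 0.05 there and DESeq2 called 52. All 22 genes of the difference of responses were among the 912. The 674 had a median of 0.84 in light and 0.20 in darkness, and 574 of them had the same sign in darkness. Without normalisation beyond library totals the split turned to 457 higher and 852 lower among 1309 calls, as the median of all genes moved to -0.11. Without blue light replicate 1 the light comparison called 329 genes, without red light replicate 1 it called 232, and without red light replicate 2 it called 582. Without replicate 2 of red light, or 1 or 2 of its darkness, the red response called 3852, 4114 or 3953 genes.

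Among called genes of at least 10 CPM in a group whose light libraries did not overlap, the farthest apart in light, picked after their values were seen, were ELIP1, the thionin THI2.2 (3.52), COR15A (3.32), the phosphotriesterase family gene AT3G57020 (3.07) and ELIP2 on the blue side. The difference of responses of COR15A was negative, at -2.012 (SE 1.707), beside a blue minus red value of 5.329 in darkness that did not pass. Its dark values rest on 2 and 210 reads in the blue series and 3 and 1 in the red. THI2.2 had a difference of responses of 1.833 (SE 2.998), with 3 and 1 dark reads in the blue series and 0 and 1 in the red. AT3G57020 was at 172 and 99.1 CPM in blue light, against 2.55 and 2.82 CPM, and at 22.19 and 10.11 CPM in red light, against 1.97 and 1.72 CPM, with a difference of responses of 2.52 (SE 0.50, adjusted p = 0.096). On the red side were the neighbouring O-methyltransferase genes AT1G77520 (-2.79) and AT1G77530 (-1.999) and DR4, drought-repressed 4 (-1.67). DR4 was at 207.5 and 289.9 CPM in blue light, against 226.5 and 330.4 CPM, and at 904 and 678 CPM in red light, against 641 and 576.5 CPM. In darkness the blue minus red value of DR4 was -1.13 and did not pass (adjusted p = 0.439), and its difference of responses was -0.54 (SE 0.53, adjusted p = 1).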

How the data were processed

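The deposited table holds read counts per gene, whole numbers that were not normalised, for 22 libraries. Per the labels' protocols, each was made from 4 µg total RNA. The submitters' processing notes name the build TAIR 10. Not given in the sources used here are the aligner, the counter, strandedness and what was done with multiply mapping reads, so near-identical and overlapping genes are uncertain. Gene names came from the TAIR 10.1 RefSeq table, used for names only (32835 of 33602 loci matched, 767 did not). filterByExpr (minimum count 10) kept 23011 genes with 99.99% of counts. Contrasts were tested in edgeR 4.0.16 by its quasi-likelihood F test (R 4.3.3, TMM, 1 mean per group over all 22 libraries, 11 residual degrees of freedom), with Benjamini-Hochberg adjustment over the 23011 genes and a threshold of 0.05 for a call. Blue light, red light and their darkness were contrasted as described in the text. The number of libraries limits precision, and genes with few reads, such as AT4G15700 and ATGA2OX1, also carry counting error.

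The members and lists were chosen with earlier results of these data known. The text names the 10 largest positive called differences (at least 10 CPM in a group, library pairs not overlapping). The same rule for the 10 most negative named no gene, as the only negative call lies below 10 CPM. Also named are up to 3 called members of each of 30 lists (567 of 579 genes measured), 25 further genes listed by name, and all photoreceptors. Other names, among them the remaining called genes, the white and 1 h values and the list members named in light were picked after values were seen. In simulated counts with 200 changed genes, 52 of 100 at 2-fold and 85 of 100 at 4-fold were recovered for this contrast over 22932 genes, with 7 false among 145 calls. The simulated counts were drawn independently for each library, without deviations shared between libraries. They do not show how the test fares where libraries share such deviations. Alternatives were RLE factors, library totals, other filters, DESeq2 1.42.0, a fold threshold, no organelle genes, replicate blocks, 8 libraries, thinning to 35000731 counts, and left-out libraries; where these left 1 library in a group, it was assumed to vary like the others.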

Additional observations from a re-analysis of the deposited data

Results flagged for a closer look

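Each of the 22 genes below had a 6 h response that differed between blue and red light by the edgeR test of the difference itself; values are the blue minus red difference on the log2 scale. The largest were those of AT4G15700 (4.60), ATGA2OX1 (2.91), PIL1 (2.85), AT1G13670 (1.79), SQE3 (1.71) and SAHH2 (1.68). Differences between 1 and 1.4 were found for SEP2 (1.39), AT2G46420 (1.38), LZF1 (1.38), PPC2 (1.34), AT1G78820 (1.26), AT1G73650 (1.25), SDHAF2 (1.22), AT3G16350 (1.14) and COX15 (1.03). Below 1 were AOAT2 (0.98), AT5G04830 (0.91), CM1 (0.90), NUDT2 (0.82), AT3G15090 (0.79) and PHYB (0.75). AT4G21730 had the 1 negative difference (-1.96).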

How the results depend on the processing

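The count of genes whose responses differed was 22; it was 21 with RLE factors, 15 with library totals, 23 with no filter, 22 with a stricter filter, 22 without organelle genes and 20 after thinning. It was 137 by DESeq2, 2 against a log2 difference of 1, 0 with only the 8 libraries, 4 without both blue libraries numbered 1, 4 without both red libraries numbered 2, and 4 to 47 with 1 library left out. For blue against red light, 912 became 1781 by DESeq2, 14 against the fold threshold, 142 with the 8 libraries, 336 and 441 without those blue or red libraries, and 232 to 872 with 1 left out. For darkness, 0 became 52 by DESeq2, 3 without the blue libraries numbered 1, and 0 to 2 with 1 left out. The blue response became 1185 against the fold threshold and 5158 without those blue libraries (5984 to 8470 with 1 left out); the red response became 858 and, without those red libraries, 2232 (3852 to 6425). The cause of these shifts was not tested. Fits that leave libraries out also held fewer samples.

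With 2 numbers per group, pairing by replicate number could not be established: deviations of same-numbered libraries correlated at 0.0456 to 0.453 over the 6 pairs of groups. With the number as a block within series the difference had 72 calls and with 1 block over all series 61, each including all 22; the light comparison had 2572 and 2148 and darkness 546 and 9. Among list genes the block within series also called RUP2 (adjusted p = 0.00192), BBX18 (0.0168), SPA4 (0.0168), PIF7 (0.0243), PIF4 (0.0355), GID1B (0.0433) and DIN9 (0.0471), and the light signalling list had 7 calls with it, 5 with 1 block over all series and 7 by DESeq2.

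SIGE passed by DESeq2 (1.68), with either block (1.71 and 1.69), and with 1 library left out in 1 of 8 fits (1.29 to 2.27). Some differences with no call changed sign. They were GA3OX2 after thinning (0.137), LKP2 with library totals (-0.066), TT4 with the block within series (-0.176), and without the blue libraries numbered 1 PHOT1 (0.044), CRY1 (0.112), PHOT2 (0.116), TT4 (-0.679) and DFR (-0.397). Without the red libraries numbered 2 they were HYH (-0.105), CRY1 (0.037), ELIP2 (-0.105), PHOT2 (0.142), TT4 (-2.037) and DFR (-6.398). With 1 library left out the ranges were -0.62 to 0.22 for PAP1, -4.575 to 0.077 for GA3OX2, -0.076 to 0.101 for LKP2, -0.19 to 1.31 for PRR9, -0.25 to 0.76 for HYH, -0.32 to 0.18 for PHOT1, -0.108 to 0.072 for CRY1, -0.50 to 0.58 for ELIP2, -0.004 to 0.26 for PHYE, -2.26 to 1.00 for TT4, -0.108 to 0.057 for PHYC, -6.57 to 1.61 for DFR and -0.37 to 0.25 for PHOT2.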
